A study of Mus musculus with 2 samples.

Results

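Leukocyte microRNAs of the newborn mouse heart are represented here by 6 of the 1973 gene rows of the count tables. They were chosen by gene name as microRNAs known for their expression in white blood cells. As with the gene lists used below, earlier results of these data were known when they were chosen. Mir223 stands for myeloid cells, Mir150 for lymphocytes, and Mir155, Mir146 and Mir146b for immune activation, all 5 by counts on their own strand. The row of Mir142b was read on its opposite strand, where Mir142 lies. All 6 rows were among those counted, and 5 of them had 10 or more counts in each library, with Mir142b read on its opposite strand. Of the 5 sense members 4 did so, against 18.1% of all rows.

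The data are microRNA sequencing of whole hearts from B6NCrl mice, a C57BL/6N substrain, at postnatal day 0. Libraries were made from total RNA and kept molecules under 30 nt. There was 1 group of 2 hearts from separate pups, replicate 1 from pup 1 and replicate 2 from pup 3. No genetic change or treatment is labelled, and no other tissue or age was measured, so levels and ratios within this group are what the design allows. Whole hearts hold muscle, vessel, connective tissue and blood cells together, so fewer cells of a type and less RNA per cell cannot be told apart.

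MicroRNAs are cut from hairpin precursors, and the mature strand pairs with messenger RNAs mainly through its seed, bases 2 to 8. Mir142 is made in all blood cell lineages. Mir223 is abundant in granulocytes and other myeloid cells, and Mir150 in mature B and T lymphocytes, where it targets the transcription factor gene Myb. Mir155 is processed from the non-coding transcript Mir155hg and is induced in activated macrophages and lymphocytes. Mir146, the gene of miR-146a, is induced by NF-kB and targets Traf6 and Irak1, which act in the same signalling pathway. Mir146b yields a close relative of miR-146a.

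The mature sequences below are shown because the Mir142 result turns on which strand of one locus they come from, and because the activation-linked members include a pair with one seed. They are RefSeq sequences on build GRCm38.p6, written 5′ to 3′ with the seed in capitals. miR-142a-5p and miR-142a-3p come from the plus strand of chromosome 11, and miR-142b from the minus strand of the same place.
miR-142a-5p: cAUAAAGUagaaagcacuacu
miR-142a-3p: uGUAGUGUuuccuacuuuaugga
miR-142b: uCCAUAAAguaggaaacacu
miR-223-3p: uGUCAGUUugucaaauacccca
miR-155-5p: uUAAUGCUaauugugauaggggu
miR-146a-5p: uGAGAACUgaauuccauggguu
miR-146b-5p: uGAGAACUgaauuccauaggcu
miR-150-3p: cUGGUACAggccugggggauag
For Mir150, miR-150-5p is named only.

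All 20 bases of miR-142b are the complement of a stretch of the 23 nt of miR-142a-3p. Neither Mir142 product matched the Mir142b hairpin read on its own strand. The fewest mismatches were 3 for miR-142a-5p and 4 for miR-142a-3p, while both matched the Mir142 hairpin with 0 mismatches. Among the 12 mature sequences found for these genes there were 11 distinct seeds. miR-146a-5p and miR-146b-5p shared the seed GAGAACU, and they were identical over the first 17 of 22 nt. They differ by G18A and U21C, with the base of miR-146a-5p first and positions counted from 1 at the 5′ end. Their precursors share a 21-nt stretch, and they were the only members sharing 20 nt or more with another annotated precursor, so the division of reads between Mir146 and Mir146b is uncertain. The counts are per hairpin, so the 5p and 3p strands of a gene are not separated.

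The libraries held 7630427 sense counts in replicate 2 and 6373797 in replicate 1. At these depths 3 counts, the limit that a count of 0 allows, correspond to 0.393 counts per 1000000 sense counts (CPM) in replicate 2 and 0.471 CPM in replicate 1. Intervals are exact 95% intervals and cover counting error only, since PCR copies were not marked. Markers of heart muscle and endothelium were abundant. Mir208b, a cardiac muscle microRNA lying within a myosin heavy chain gene, had 108150 CPM in replicate 2 and 101723 CPM in replicate 1. The other heart muscle markers were below Mir208b and went the other way between the hearts. Mir208a had 11988 CPM in replicate 2 and 15419 CPM in replicate 1. Mir499 had 4847 CPM in replicate 2 and 5106 CPM in replicate 1. Mir126a, an endothelial microRNA, ranked 1 of all rows.

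Leukocyte microRNAs formed a small share of the library. The 6 members together made up 0.120% of sense counts in replicate 2 (interval 0.117 to 0.122%) and 0.127% in replicate 1 (0.124 to 0.129%), a mean of 0.123% ± 0.00470 (SD, n = 2). Mir142 and Mir223 gave most of it, and the lymphoid member very little. The ratio of Mir208b to Mir223 was 273 in replicate 2 and 249 in replicate 1. With Mir499 in place of Mir208b it was 12.2 in replicate 2 and 12.5 in replicate 1. The sum of Mir142 uses opposite-strand counts over the sense total, which does not contain them. The 5 members counted on their own strand made up 0.0680% in replicate 2 and 0.0631% in replicate 1.

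Mir142, the microRNA of all blood lineages, was the most abundant member. It lies at chr11:87756864-87756927 on the plus strand (build mm10), in an intron of the lincRNA Mir142hg. All 64 of its bases fall inside the 115-nt row of Mir142b (ENSMUSG00000065420.2), chr11:87756841-87756955 on the minus strand. The opposite-strand count of that row was 3958 in replicate 2, or 519 CPM (503 to 535), and 4043 in replicate 1, or 634 CPM (615 to 654). Replicate 1 was higher, and the mean of 577 ± 81.7 CPM (SD, n = 2) placed Mir142 at rank 91 among the 1973 rows by sense level. Ranks of all members count only the sense levels of other rows. They leave out microRNAs that, like Mir142, were counted on the opposite strand, some of them at higher levels. The strand of Mir142b itself had 0 counts in both libraries. Thus 100% of the counts of the row lay on the strand of Mir142, with an exact lower limit of 99.9% in each library, and read by its own strand the row would be listed at 0.

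The other opposite-strand counts show how common such a row is. Of the 1973 rows, 12 (0.608%) had 100 or more opposite-strand counts in both libraries, and Mir142b was 8th of them by level. All 12 overlap an annotated microRNA on the other strand that is not itself among the genes counted, and all 12 had more opposite than sense counts. Of these 12 rows 6 had 0 sense counts in both libraries. The 1941 rows with no annotated microRNA opposite them had 117 opposite-strand counts together in replicate 2 (0.00187% of their counts on both strands) and 103 in replicate 1 (0.00200%). Among the 5 other leukocyte members the opposite strand had 1 count, at Mir150 in replicate 2.

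**Figure D1:**
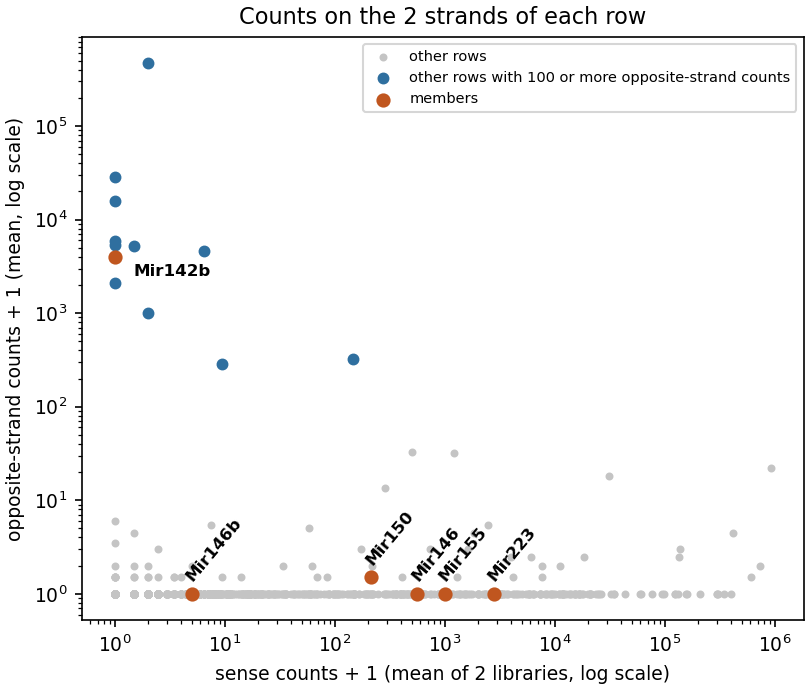
Sense counts (x axis) against opposite-strand counts (y axis) of each row, both as the mean of 2 libraries plus 1 on log scales, with leukocyte members in orange. Mir142b sits at 0 sense counts among the rows with high opposite-strand counts, while the 5 other members lie along the bottom.

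Mir223, the myeloid member, was next. Mir223 (ENSMUSG00000076066.1) lies at chrX:96242817-96242926 on the plus strand, within an exon of the non-coding transcript F630028O10Rik. It had 3024 counts in replicate 2, or 396 CPM (382 to 411), and 2609 in replicate 1, or 409 CPM (394 to 425). The intervals overlapped, and the mean was 403 ± 9.21 CPM (SD, n = 2), rank 104.

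Mir150, the lymphoid member, was far lower. Mir150 (ENSMUSG00000065495.1) lies at chr7:45121757-45121821 on the plus strand, with no host transcript on its strand. It had 224 counts in replicate 2, or 29.4 CPM (25.6 to 33.5), and 205 in replicate 1, or 32.2 CPM (27.9 to 36.9). The hearts overlapped here too, and the mean was 30.8 ± 1.98 CPM (SD, n = 2), rank 212.

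The activation-linked members ranged from Mir155 down to Mir146b. Mir155 (ENSMUSG00000065397.1) lies at chr16:84714140-84714204 on the plus strand, in an exon of Mir155hg. It had 1289 counts in replicate 2, or 169 CPM (160 to 178), and 720 in replicate 1, or 113 CPM (105 to 122). It was higher in replicate 2 with no overlap of the intervals, and its mean was 141 ± 39.6 CPM (SD, n = 2), rank 141. Mir146 (ENSMUSG00000065601.1) lies at chr11:43374397-43374461 on the minus strand, with no host on that strand. It had 646 counts in replicate 2, or 84.7 CPM (78.3 to 91.4), and 485 in replicate 1, or 76.1 CPM (69.5 to 83.2), a mean of 80.4 ± 6.06 CPM (SD, n = 2), rank 167. The intervals of Mir146 overlapped between the hearts.

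Mir146b (ENSMUSG00000070127.2), in an intron of Mfsd13a at chr19:46342762-46342870 on the plus strand, was close to the detection limit. It had 6 counts in replicate 2, or 0.786 CPM (0.289 to 1.71), and 2 in replicate 1, or 0.314 CPM (0.0380 to 1.13). The value of replicate 1 was under the 0.471 CPM that a count of 0 allows. Although miR-146a-5p and miR-146b-5p share a seed, nearly all counts of the pair were assigned to Mir146.

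**Figure D2:**
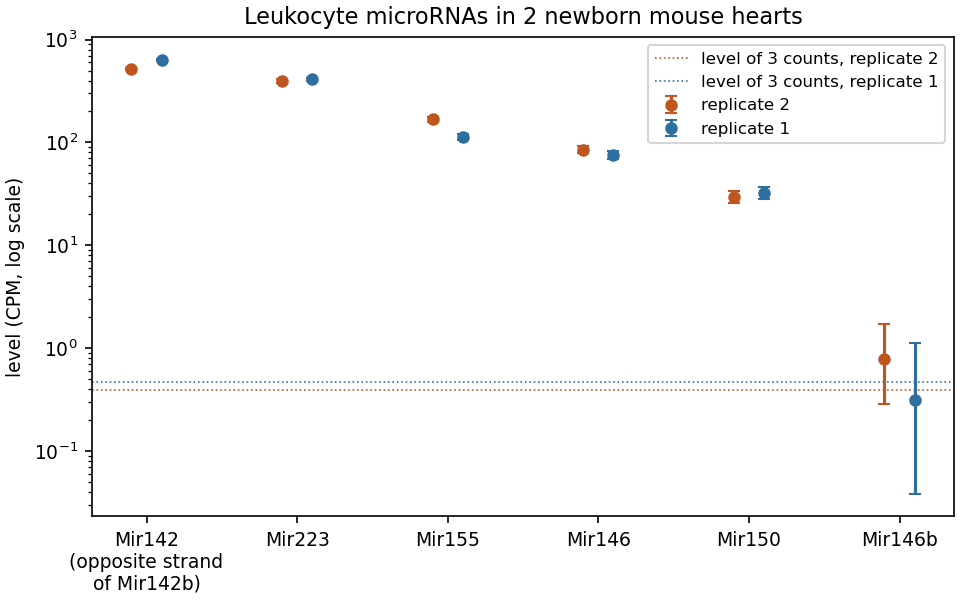
Level of each leukocyte member in each heart in CPM on a log scale, replicate 2 left of replicate 1, with exact 95% counting intervals; dotted lines mark the level of 3 counts in each library. The order Mir142, Mir223, Mir155, Mir146, Mir150, Mir146b was the same in both hearts, and Mir146b sat at the level of a few counts.

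By mean level the order was Mir142, Mir223, Mir155, Mir146, Mir150 and Mir146b, and it was the same in both hearts. Each ratio was taken with the member of higher mean level on top, so its mean direction is set by these same data. All 15 ratios between members had counting intervals above 1 in both libraries. For the 5 neighbouring pairs in the order, the mean log2 ratio exceeded the SD between the hearts. With 2 hearts, an exact sign-flip permutation test cannot give a p below 0.5, so these orders rest on counting intervals and on agreement of direction in 2 of 2 hearts. Levels here are per hairpin and were not divided by length, the sequenced molecules all being under 30 nt. How evenly library preparation captured different microRNAs was not measured. Orders and ratios between members are therefore those of counts, and an uneven capture could repeat in both hearts.

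**Figure D3:**
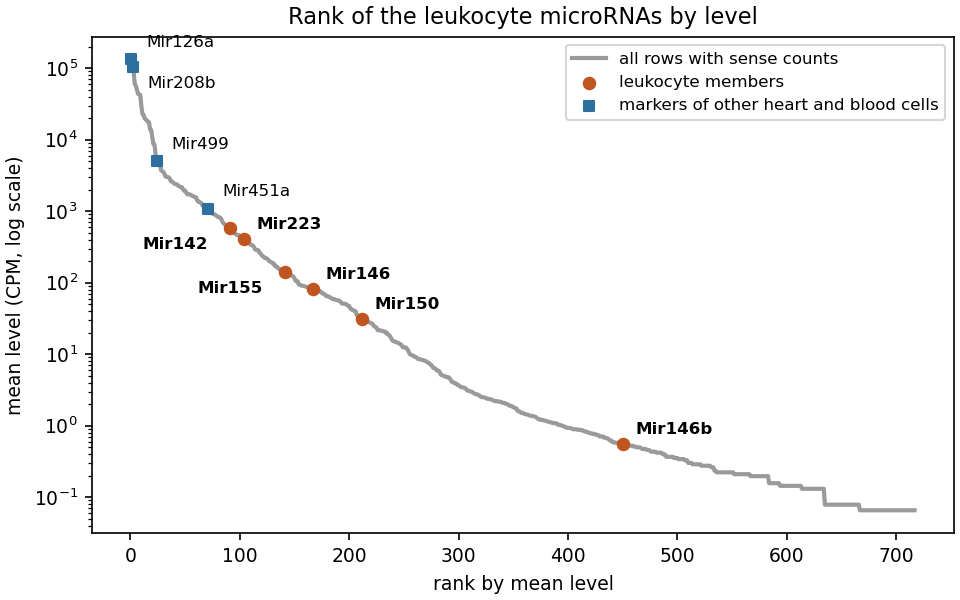
Mean level in CPM (log scale) against rank of all rows with sense counts, with leukocyte members in orange and markers of other heart and blood cells as squares. Against sense levels only, the members run from rank 91 for Mir142 to rank 450 for Mir146b, below Mir126a, Mir208b, Mir499 and Mir451a.

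The myeloid member exceeded the lymphoid one by a similar factor in both hearts. The ratio of Mir223 to Mir150 was 13.5 in replicate 2 (11.8 to 15.5) and 12.7 in replicate 1 (11.0 to 14.7), a mean log2 ratio of 3.71 ± 0.06 (SD, n = 2). Mir142 exceeded Mir150 17.7-fold in replicate 2 (15.4 to 20.3) and 19.7-fold in replicate 1 (17.1 to 22.8). These intervals overlapped between the hearts. Of the 10 pairs without Mir146b, 4 had overlapping intervals and 6 did not, while the 5 pairs with Mir146b all overlapped, with wide intervals from its few counts.

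Ratios with the activation-linked members differed more between the hearts. The ratio of Mir223 to the sum of Mir155, Mir146 and Mir146b was 1.56 in replicate 2 (1.47 to 1.65) and 2.16 in replicate 1 (2.02 to 2.32), a mean log2 of 0.88 ± 0.33 (SD, n = 2). That sum exceeded Mir150 8.67-fold in replicate 2 (7.54 to 9.995) and 5.89-fold in replicate 1 (5.07 to 6.86), a mean log2 of 2.84 ± 0.39 (SD, n = 2). In both comparisons the intervals of the hearts were apart, with the activation-linked sum relatively higher in replicate 2. Within the activation-linked members, the ratio of Mir155 to Mir146 was 2.00 in replicate 2 (1.81 to 2.20) and 1.48 in replicate 1 (1.32 to 1.67).

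Mir142 and Mir223, both abundant in myeloid cells, also kept no fixed ratio. It was 1.31 in replicate 2 (1.25 to 1.37) and 1.55 in replicate 1 (1.47 to 1.63). As shares of the counts of all 6 members, Mir142 took 43.3% in replicate 2 and 50.1% in replicate 1, and Mir155 took 14.1% in replicate 2 and 8.93% in replicate 1. Mir223 took 33.1% in replicate 2 and 32.4% in replicate 1, and Mir150 took 2.45% in replicate 2 and 2.54% in replicate 1. Thus the share of Mir155 was larger and that of Mir142 smaller in replicate 2, while those of Mir223 and Mir150 had overlapping intervals.

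**Figure D4:**
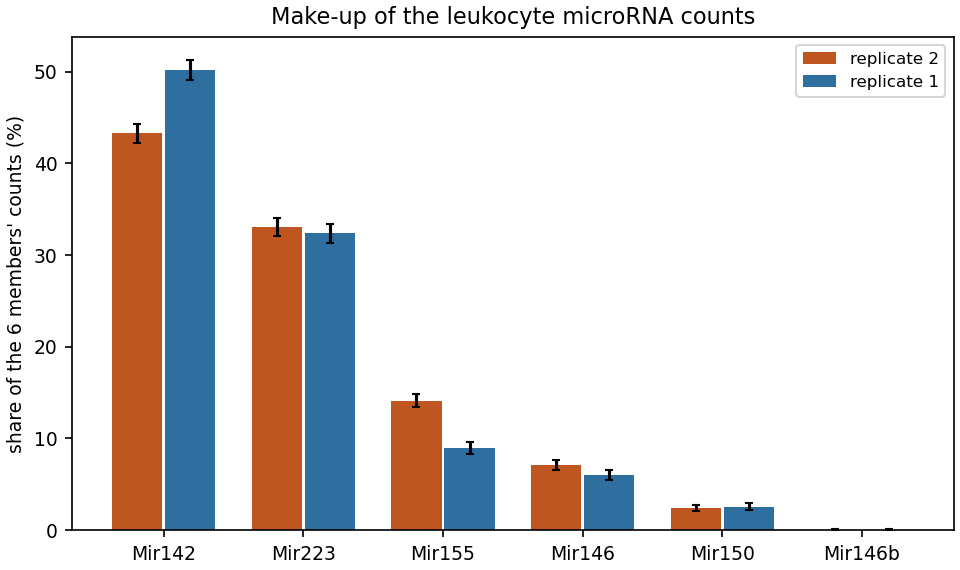
Share of the counts of the 6 leukocyte members taken by each member in percent, replicate 2 left of replicate 1, with exact 95% counting intervals as error bars. Mir142 and Mir223 have the tallest bars in both hearts, and Mir155 takes 14.1% in replicate 2 and 8.93% in replicate 1.

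Each gene was then compared between the hearts with an exact binomial test (2-sided, scaled to library totals), Benjamini-Hochberg adjusted over all genes tested. With 1 library per heart, animals and library preparations cannot be told apart, and the test covers counting error only. Of the 4 members with enough sense counts to test, 1 passed, against 31.0% of the 435 genes tested (19.1% higher in replicate 2 and 12.0% higher in replicate 1). The median log2 ratio of replicate 2 over replicate 1 was 0.05 over the 4 members and 0.02 over all genes tested.

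The member that passed was Mir155, 1.50-fold higher in replicate 2 (1.36 to 1.64), a log2 ratio of 0.58 (adjusted p = 1.74e-17, exact binomial test). Mir223 had a ratio of 0.968 (0.918 to 1.02, adjusted p = 0.436), Mir146 a ratio of 1.11 (0.987 to 1.25, adjusted p = 0.203) and Mir150 a ratio of 0.913 (0.752 to 1.11, adjusted p = 0.611), all by the same exact test. A p that misses the threshold does not show that the hearts were alike, and the intervals give the differences the counts allow. Mir146b had fewer than 10 counts in all and was not tested.

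Mir142 was tested among the opposite-strand counts. Of 18 rows with enough of them 11 passed (61.1%), 6 higher in replicate 2 (33.3%) and 5 lower (27.8%). Mir142 was lower in replicate 2, with a ratio of 0.818 (0.782 to 0.855), a log2 ratio of -0.29 (adjusted p = 1.52e-18, exact binomial test). When a spread between animals was added, neither call was kept. In an edgeR exact test with a preset biological coefficient of variation of 0.1, the adjusted p was 0.39 for Mir155, and 1 gene of 435 passed in all. For Mir142 the adjusted p was 0.983 in the same exact test run over sense and opposite-strand counts together. That run was added after seeing the data.

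**Figure D5:**
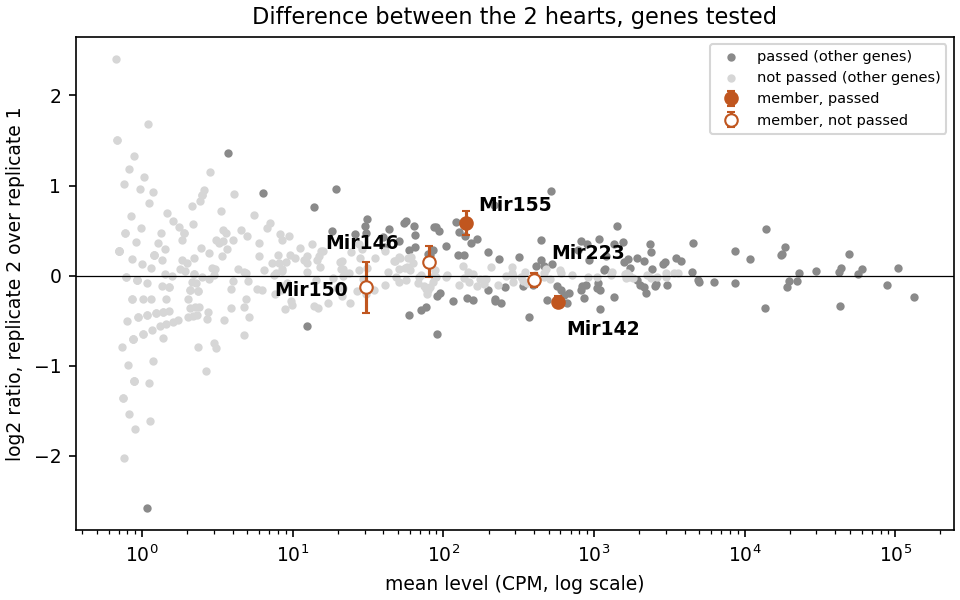
Log2 ratio of replicate 2 over replicate 1 against mean level in CPM (log scale) for the genes tested, with exact 95% intervals for the leukocyte members; Mir142 is drawn from opposite-strand counts and the others from sense counts. Mir155 lies above 0 and Mir142 below 0 (filled), while Mir223, Mir146 and Mir150 were not called (open).

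Red blood cell microRNAs, which whole hearts carry in their blood, gave no single direction between the hearts. Mir451a, made in maturing erythroid cells, had 1237 CPM in replicate 2 and 931 CPM in replicate 1, a ratio of 1.33. Mir144, cut from the same primary transcript, had 71.2 CPM in replicate 2 and 112 CPM in replicate 1, a ratio of 0.636. Mir486 had 71.3 CPM in replicate 2 and 71.2 CPM in replicate 1. Of these 3 genes, 1 was higher in replicate 2, 1 was lower and 1 did not pass. Of all 435 genes tested, 19.1% were higher in replicate 2 and 12.0% were lower, by a test that covers counting error only. The ratio of Mir451a to Mir142 was 2.38 in replicate 2 and 1.47 in replicate 1. The part of blood content in the differences of Mir155 and Mir142 was not tested.

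Of the other microRNAs known from myeloid cells, several are also known from other cell types. All 7 in the list were tested, with 1 higher in replicate 2, 3 lower and 3 not passing, against 19.1% higher and 12.0% lower of the 435 genes tested. Their median log2 ratio was -0.13, against 0.02 over all genes. The calls in this and the other lists come from the same test of counting error, and in the edgeR test above 1 gene of 435 passed. The test of counting error calls smaller ratios in genes with more counts. The share called in a list thus depends also on the levels of its genes, which were not matched to those of all genes. Mir322 had 57017 CPM in replicate 2 and 56350 CPM in replicate 1. Its call, a ratio of 1.01, was lost under edgeR's or DESeq2's scaling and turned to lower in replicate 2 when the most abundant gene was left out of the total. Mir21a, a microRNA of many activated cell types, had 18387 CPM in replicate 2 and 20161 CPM in replicate 1. Mir27a had 633 CPM in replicate 2 and 725 CPM in replicate 1, and Mir24-2 had 547 CPM in replicate 2 and 592 CPM in replicate 1; both share 20 nt or more with a paralog, so their counts are uncertain. The macrophage-associated Mir511 and Mir147, singled out after their values were seen, were low and did not pass. Mir511 had 4.46 CPM in replicate 2 and 5.33 CPM in replicate 1, and Mir147 had 2.23 CPM in replicate 2 and 3.77 CPM in replicate 1.

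Of 12 other microRNAs known from lymphocytes, all tested, 7 were higher in replicate 2, 1 was lower (Mir181a-1) and 4 did not pass, against 19.1% higher and 12.0% lower of all genes tested. Abundant genes such as Mir17 are called at smaller ratios, so these shares are not a comparison at like levels. The median log2 ratio of the 12 was 0.19. Several of the 12 come from the cluster of Mir17 and several are also known from other cell types. They are therefore not independent markers of lymphocytes. Under each of the 3 other scalings 6 of the 12 were higher, Mir92-1 no longer passing. Counts of 4 of the 7 (Mir181b-1, Mir181b-2, Mir92-1 and Mir28a) and of Mir181a-1 are uncertain, since these share 20 nt or more with another annotated precursor. Mir17, of a cluster that promotes growth of lymphocytes and of other cells, had 9492 CPM in replicate 2 and 7888 CPM in replicate 1. Mir20a of the same cluster had 3975 CPM in replicate 2 and 3548 CPM in replicate 1. Mir342 had 1693 CPM in replicate 2 and 1157 CPM in replicate 1, a ratio of 1.46 (adjusted p = 4.35e-153, exact binomial test), close to that of Mir155. Mir18 had 1295 CPM in replicate 2 and 1294 CPM in replicate 1 and did not pass.

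Other activation-linked microRNAs went both ways. Of 15 listed 14 were among the genes counted and 13 were tested. Mir125a and Mir221 were higher in replicate 2, 4 were lower (Mir132, Mir187, Mir125b-2 and Mir210) and 7 did not pass, against 19.1% higher and 12.0% lower of all genes tested. Their median log2 ratio was -0.05. Mir125a had 5144 CPM in replicate 2 and 4001 CPM in replicate 1. Mir210, known as a hypoxia-induced microRNA, had 1003 CPM in replicate 2 and 1106 CPM in replicate 1. Mir125b-2 had 587 CPM in replicate 2 and 681 CPM in replicate 1, and Mir125b-1, which shares its mature sequence and did not pass, had 281 CPM in replicate 2 and 295 CPM in replicate 1. The counts of that pair are uncertain for this reason.

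The genes nearest to each member in mean log2 CPM, over 2 libraries and among 354 other genes, place these levels in the heart. Mir142 was nearest to Mir24-2 and Mir1983, Mir223 to Mir350 and Mir455, and Mir146 to Mir204 and Mir494. Mir150 was nearest to Mir323 and Mir129-2. Mir155 was nearest to Mir3102, which had 160 CPM in replicate 2 and 118 CPM in replicate 1, and to Mir341, which had 135 CPM in replicate 2 and 138 CPM in replicate 1. Thus of the neighbours of Mir155 in level, Mir3102 was also higher in replicate 2 (1.36-fold, adjusted p = 1.66e-10, exact binomial test) and Mir341 did not pass. No gene with enough counts was near Mir146b, the nearest, Mir802, being 1.53 log2 units away.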

How the data were processed

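MicroRNA sequencing of 2 newborn hearts, 1 library each, was used. The deposited values are whole-number read counts per gene, not normalized by the authors. Build mm10 with GENCODE M4 and 1 alignment file per table are given in the text notes accompanying the files; aligner and counter: not given in the sources used here. The columns have no header. In every row the first equals the sum of the other pair, so they were read, from the values, as both strands, sense and opposite strand. Rows naming no gene were left out. Reads mapping to several places, which no gene row holds, were 34.6% of replicate 2 and 35.9% of replicate 1. Unmapped reads were 15.5% of replicate 2 and 12.6% of replicate 1. Names and positions come from GENCODE M21 on the same build, which matched 1894 of 1973 identifiers; the other 79 had 0 sense counts.

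CPM was computed over the sense total, for opposite-strand counts too. Single-library intervals are exact Clopper-Pearson intervals for shares and levels, and intervals of ratios come from the binomial split of the counts. Genes with 10 or more counts together were tested between hearts with exact binomial tests and Benjamini-Hochberg adjustment at 0.05, since edgeR's quasi-likelihood test has no residual degrees of freedom with 1 library per heart. Log2 ratios of that test used 0.5 added counts. The test was checked on simulated counts with counting error only and no spread between animals. It called 6 of 241 unchanged genes and 39 of 50 genes changed 1.25-fold. This check cannot show how the calls hold where animals differ. Alternatives were other totals, scalings, count minimums, strands, thinning, single hearts and a preset spread. The named genes are the 6 members, up to 4 of each list by abundance, the 2 genes nearest to each member in level, the cell type markers and the rows with 100 or more opposite-strand counts. Other list genes (Mir181a-1, Mir181b-1, Mir181b-2, Mir92-1, Mir28a, Mir221, Mir132, Mir187, Mir511 and Mir147) were named after their values were seen. The members and lists were chosen with earlier results of these data known. Tests ran in SciPy 1.17.1 with pandas 2.3.3 and NumPy 2.4.6 under Python 3.11.15. Scalings came from edgeR 4.0.16 and DESeq2 1.42.0 under R 4.3.3, and plots from matplotlib 3.10.9.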

Additional observations from a re-analysis of the deposited data

How the results depend on the processing

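The choice of total set the shares and levels. The summed share of the 6 members, 0.123% of sense counts, was 0.114% of the counts of both strands, 0.142% of sense counts without the most abundant gene (Mir126a), 0.0556% of all reads, and 0.114% when the opposite-strand counts were added to the total, an alternative chosen after seeing the data. Mir142 was at 666 CPM without Mir126a in the total and at 261 counts per 1000000 reads. Per 1000000 of all reads Mir223 was at 182 counts, Mir155 at 63.3, Mir146 at 36.2, Mir150 at 13.9 and Mir146b at 0.246. In single hearts the log2 ratio of Mir223 to Mir150 was 3.67 to 3.75, that of Mir223 to the activation-linked sum 0.64 to 1.11, and that of this sum to Mir150 2.56 to 3.12. With both strands counted these ratios were 3.71, 0.88 and 2.83. The 135 genes that differed between hearts became 1 and 0 in edgeR's exact test at a preset coefficient of variation of 0.1 and 0.2, with 29 and 4 genes at an unadjusted p under 0.05. At 0.2 the adjusted p of Mir155 and of Mir142 was 1. The values of Mir142 at both settings came from a run over sense and opposite-strand counts together, added after seeing the data. In the 8 other alternatives for Mir155 and the 6 for Mir142 both calls held, and Mir223, Mir146 and Mir150 were not called in any of 10. Depth limits Mir146b, with 6 counts in replicate 2 and 2 in replicate 1, the most. No paired analysis was possible because there is 1 group.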

Other observations

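The rows beside Mir142b with 100 or more opposite-strand counts cover microRNAs of other cells. The row opposite Mir378a, a microRNA of muscle and other energy-rich tissue, had 67262 CPM on that strand in replicate 2 and 66589 CPM in replicate 1. The row opposite Mirlet7e had 4184 CPM in replicate 2 and 3920 CPM in replicate 1, and that opposite Mir191 had 2432 CPM in replicate 2 and 2077 CPM in replicate 1. The largest ratio among the 12 was at the row of Mir1b, opposite Mir1a-2, with 51.5 CPM in replicate 2 and 26.8 CPM in replicate 1. Stretches shared with other genes were not examined for Mir1a-2, and reads mapping to several places are in no gene row. Its level and ratio may therefore rest on part of its reads.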
